A study of Mus musculus with 11 samples.

Results

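The voltage-gated sodium and calcium channel genes, together with the ryanodine and inositol trisphosphate (IP3) receptor genes that release calcium from internal stores, were followed through ATAC-seq maps of fetal mouse lung epithelium. ATAC-seq marks open chromatin, because a transposase inserts adapters where DNA is accessible. Members were the peaks of 11 deposited lists whose nearest protein-coding gene body, no more than 100 kb away, carried a symbol beginning with Cacn, a symbol beginning with Scn and a number, or the name Ryr1 to Ryr3 or Itpr1 to Itpr3. The epithelial Scnn1 genes were not members. The rule took 3571 of 981265 deposited peaks, which fell at 46 genes among 21896 protein-coding genes. After peaks of different libraries were combined into windows of 400 bp, 425 of 101557 windows, called regions here, belonged to these genes. Peak positions chose the members, so the presence of peaks at these genes is a description and not a finding.

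The 5 knockout libraries (Prdm3/16KO) came from E17.5 fetuses in which floxed alleles of Prdm16 (from Jackson Laboratory) and Prdm3 (from the Kurokawa laboratory) were deleted with Shh-Cre, a recombinase driven in the lung epithelium by the sonic hedgehog promoter. The 6 Control libraries came from E17.5 fetuses whose genotype is given only by that word. The sires carried Cre, 2 floxed Prdm3 alleles and 1 floxed Prdm16 allele, and the dams had floxed alleles of both genes on both chromosomes. All libraries were made from cells of dissociated lung retained on EpCAM microbeads. The labels do not say whether each library was a separate animal, and p-values therefore measure the spread between libraries, which may be technical.

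Voltage-gated calcium channels consist of a pore subunit (alpha1), which an extracellular alpha2delta subunit and a cytoplasmic beta subunit bring to the cell surface, and in skeletal muscle a gamma subunit. Sodium channels pair an alpha pore with small beta subunits and carry the upstroke of the action potential in nerve and muscle. Ryanodine and IP3 receptors open the calcium store of the endoplasmic reticulum, and IP3-driven calcium release is a known trigger of surfactant secretion in alveolar type 2 cells.

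Accessibility was expressed as a rank score. Each library contributed its 72935 strongest peaks by the authors' -log10 p, as many as the shortest list holds, ranked so that the strongest scored 1, the weakest scored close to 0, and a region without a peak among them scored 0. Read depth is unknown, since the lists hold no counts. The knockout lists held 72935 to 85704 peaks and the Control lists 79525 to 112297. Libraries correlated at 0.818 to 0.860 within knockouts and 0.795 to 0.881 within controls, against 0.554 to 0.656 between genotypes (Pearson's r over regions, as a description). Defining markers of epithelium had a peak at a gene end in 10 of 10 genes, with list means of 0.569 to 0.653 in knockout libraries and 0.614 to 0.670 in controls. Sftpc had its peak in 4 of 5 knockouts and 4 of 6 controls. Epcam, Cdh1, Krt8, Cldn3, Sftpc and Ager averaged slightly higher in knockouts. The other markers were lower, among them Sftpb (0.552 in knockouts, 0.797 in controls) and Hopx (0.352 in knockouts, 0.481 in controls). All 5 immune markers were at 0, and of 5 endothelial markers Pecam1 and Cdh5 were at 0. Tek had a peak in 0 of 5 knockouts and 6 of 6 controls, where it averaged 0.519, and Kdr and Cldn5 had one in all 11 libraries. The endothelial list averaged 0.158 to 0.247 in knockouts and 0.229 to 0.378 in controls, and the part of endothelial cells in the channel results was not tested. At the targeted genes, 66 regions of Prdm16 and Mecom (the symbol of Prdm3) remained measurable, 11 (16.7%) lower and 19 (28.8%) higher in the knockout, beside 20.8% and 17% over all regions. The lists do not locate the deleted exons, so this checks no deletion. In such bulk samples, fewer cells with an open region and a less open region in each cell cannot be told apart.

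Members supplied 272, 296, 268, 285 and 263 of the strongest peaks in knockout replicates 1 to 5, against 253, 255, 240, 255, 258 and 292 in Control replicates 1 to 6. The 2 ranges overlapped. These counts were 0.380% ± 0.0185 and 0.355% ± 0.0239 of the ranked peaks (SD, n = 5 knockouts and 6 controls). A region needed a peak in at least 3 of the 11 libraries to be tested, and 325 member regions of 83262 in all did so. Of the 100 that did not, 38 had peaks in knockouts only, 56 in controls only and 6 in both. At the distance limit, the farthest member region lay 95921 bp from Cacna2d1 and had a peak in all 11 libraries (mean scores 0.845 in knockouts and 0.797 in controls), and the nearest excluded region lay 120171 bp from Ryr2 and also had a peak in all 11 (0.413 in knockouts and 0.497 in controls).

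Promoter sequences from RefSeq (GRCm38.p6, the assembly of mm10), covering 250 bases before to 50 bases after each annotated start, matched 45 windows of 34 member genes. The 11 promoters with a region open in all 11 libraries held a median of 35 CpG dinucleotides, those with a tested region in fewer libraries 28, and the 22 without any region 5, beside 7 over all 32851 promoters. Of 22 tested regions that overlapped a promoter window of their gene, 3 (13.6%) were called lower in the knockout and 1 (4.55%) higher, beside 8.91% and 7.92% of the 12254 regions that overlap any promoter window, so nothing is read from the count itself. Those 4 promoters are printed first, and then those of Ryr2 and Cacna2d3, whose gene bodies gained the most regions while their own promoters were not called. Capitals mark matches on either strand to CAAGTG (the core of NKX2 factor sites, printed because the study's title names NKX2-1), GGAATG (the core of TEAD factor sites), GGGCGG (the GC box), CCAAT or TATAAA, which 13.6%, 14.7%, 35.7%, 37.4% and 13.6% of all promoters hold. Adjacent GC boxes can overlap, and a match is a description of letters, not a bound site. All are written 5′ to 3′ on the strand of the gene.
Cacnb2, chr2:14823842-14824141, plus strand: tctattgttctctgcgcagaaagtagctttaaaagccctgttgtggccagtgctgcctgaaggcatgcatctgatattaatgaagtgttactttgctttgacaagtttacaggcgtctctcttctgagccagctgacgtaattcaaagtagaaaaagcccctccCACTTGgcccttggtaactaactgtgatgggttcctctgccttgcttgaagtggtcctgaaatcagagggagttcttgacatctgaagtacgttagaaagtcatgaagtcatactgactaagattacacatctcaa
Cacna1c, chr6:118757925-118758224, minus strand: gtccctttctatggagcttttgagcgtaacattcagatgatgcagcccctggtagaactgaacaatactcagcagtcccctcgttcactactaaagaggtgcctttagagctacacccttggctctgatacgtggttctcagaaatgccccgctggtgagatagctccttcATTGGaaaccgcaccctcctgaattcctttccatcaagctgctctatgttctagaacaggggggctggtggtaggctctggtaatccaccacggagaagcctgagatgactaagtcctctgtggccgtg
Itpr2, chr6:146502174-146502473, minus strand: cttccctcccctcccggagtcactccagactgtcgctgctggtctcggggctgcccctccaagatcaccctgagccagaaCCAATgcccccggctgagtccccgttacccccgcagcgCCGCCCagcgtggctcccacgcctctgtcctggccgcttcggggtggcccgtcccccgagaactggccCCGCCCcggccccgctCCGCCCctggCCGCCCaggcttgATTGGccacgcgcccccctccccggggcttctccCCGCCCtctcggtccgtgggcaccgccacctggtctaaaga
Scn9a, chr2:66634913-66635212, minus strand: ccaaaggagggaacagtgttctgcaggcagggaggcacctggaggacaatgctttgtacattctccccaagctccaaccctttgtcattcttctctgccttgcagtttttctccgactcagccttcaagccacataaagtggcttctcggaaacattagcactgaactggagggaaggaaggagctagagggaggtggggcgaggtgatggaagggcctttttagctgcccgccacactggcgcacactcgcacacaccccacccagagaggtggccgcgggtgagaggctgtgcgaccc
Ryr2, chr13:12106896-12107195, minus strand: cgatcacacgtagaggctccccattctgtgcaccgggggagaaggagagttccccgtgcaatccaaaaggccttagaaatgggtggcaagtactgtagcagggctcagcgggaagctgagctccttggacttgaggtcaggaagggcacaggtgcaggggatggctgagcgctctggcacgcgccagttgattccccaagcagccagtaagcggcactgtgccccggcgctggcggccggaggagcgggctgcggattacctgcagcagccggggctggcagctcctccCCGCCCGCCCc
Cacna2d3, chr14:29721815-29722114, minus strand: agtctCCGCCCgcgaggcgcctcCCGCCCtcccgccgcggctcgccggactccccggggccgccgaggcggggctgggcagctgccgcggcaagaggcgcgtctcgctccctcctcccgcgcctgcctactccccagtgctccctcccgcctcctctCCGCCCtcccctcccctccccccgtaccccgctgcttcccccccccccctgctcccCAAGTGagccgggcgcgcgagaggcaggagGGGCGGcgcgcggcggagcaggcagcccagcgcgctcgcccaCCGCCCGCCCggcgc

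The Cacnb2 promoter, an internal start of this beta subunit gene with 4 CpG, holds 1 match to the NKX2 core and none to the other motifs. Its region scored 0.790, 0.820, 0.814, 0.847 and 0.853 in knockout libraries, against a lowest of 0.859, a median of 0.922 and a highest of 0.948 in controls. Every knockout library lay below every control, and the region was lower in the knockout by 0.0817 (limma on rank scores with Benjamini-Hochberg adjustment over 83262 regions, adjusted p = 0.00337). The Itpr2 promoter, rich in CpG (26) with 5 GC boxes and 2 CCAAT boxes, belongs to an IP3 receptor that is prominent in secretory epithelium and heart. It stayed among the strongest peaks, with a mean score of 0.941 ± 0.00906 in knockouts and 0.968 ± 0.0148 in controls (SD, n = 5 and 6, limma adjusted p = 0.0248), and the groups overlapped.

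The other 2 called promoters were weakly open. An internal start of Cacna1c, the L-type calcium pore of heart and smooth muscle, had a peak in 0 of 5 knockouts and 5 of 6 controls, where the median score was 0.170 and the highest 0.355 (limma adjusted p = 0.0393). The Scn9a window, of a sodium pore of pain-sensing neurons, held none of the 5 motifs. It overlapped by 77 bases a region that scored 0, 0.204, 0.460, 0.298 and 0.458 in knockouts and 0 in 5 of 6 controls, with 0.269 in the other (limma adjusted p = 0.0446). Zeros occur in both groups, which overlap.

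Over all 325 tested member regions, 68 were lower in the knockout (20.9%) and 67 were higher (20.6%), beside a background of 20.8% lower and 17% higher over all regions (limma, adjusted p below the 0.05 threshold). The share of lower regions therefore stood at the background. Scores centred on each library gave 17.2% lower and 23.4% higher among members, beside 17.17% and 20.25% over all regions. Lists used at their full deposited length gave 23.4% lower and 15.4% higher among members, beside 24.85% and 12.04% over all regions. The balance of directions thus follows the scaling, among members and over all regions alike. The share of higher regions was larger among members than over all regions under each of these scalings. It was smaller when a peak in at least 6 libraries was required (12% beside 13.25%). The median difference over members was -0.0214, and over all regions it was -0.0208 (-0.0543 with deposited lists and -0.00111 after centring). A region open in 1 genotype alone passes the presence requirement only through that genotype, so these counts describe the members and support nothing further. At such regions 1 group is all 0. The limma p-values printed for them were not checked on scores with such zeros and are descriptions only.

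Among called members that changed by at least 0.5, 24 (80.0%) were higher in the knockout and 6 were lower, beside 61.1% and 38.9% of such calls over all regions. The size of a change at a region without a control peak is the rank of the knockout peak itself, so this is a description. A peak in every knockout and no control occurred at 26 member regions, 8.0% of those tested beside 3.89% over all regions. The reverse, a peak in every control and no knockout, occurred at 13, 4.0% beside 2.94%. Fisher's exact test of presence among the 72935 strongest peaks could reach significance at 127 member regions and called 37 (29.1%) present in more knockouts and 27 (21.3%) in more controls, where the background was 23.3% and 23.9% of testable regions. Leaving out any 1 library gave 26 to 31 and 13 to 16, and lists of 36467 peaks gave 24 and 9. Which regions the test can call changes in these repeats. Their shares over all testable regions are not given, so nothing about the members is read from these counts.

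By location, regions no more than 1 kb from a gene's start or end were called lower in 4 of 40 cases and higher in 1 of 40, beside 9.62% and 6.58% over all such regions. Inside gene bodies 55 of 250 were lower and 58 were higher, where the background was 24.9% and 19.1%. Farther out, 9 of 35 were lower and 8 were higher, beside 23% and 19.5%. Of the 111 member regions open in all 11 libraries, 30 were lower and 13 were higher, that is 27.0% and 11.7%, beside 17.9% and 12.7% over all 36509 such regions. Exon positions were not used here, so body regions are not divided into exons and introns. Some regions are not independent, since 56 lay within 100 bp of another member region, and 5 lay also inside the body of another gene.

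**Figure D1:**
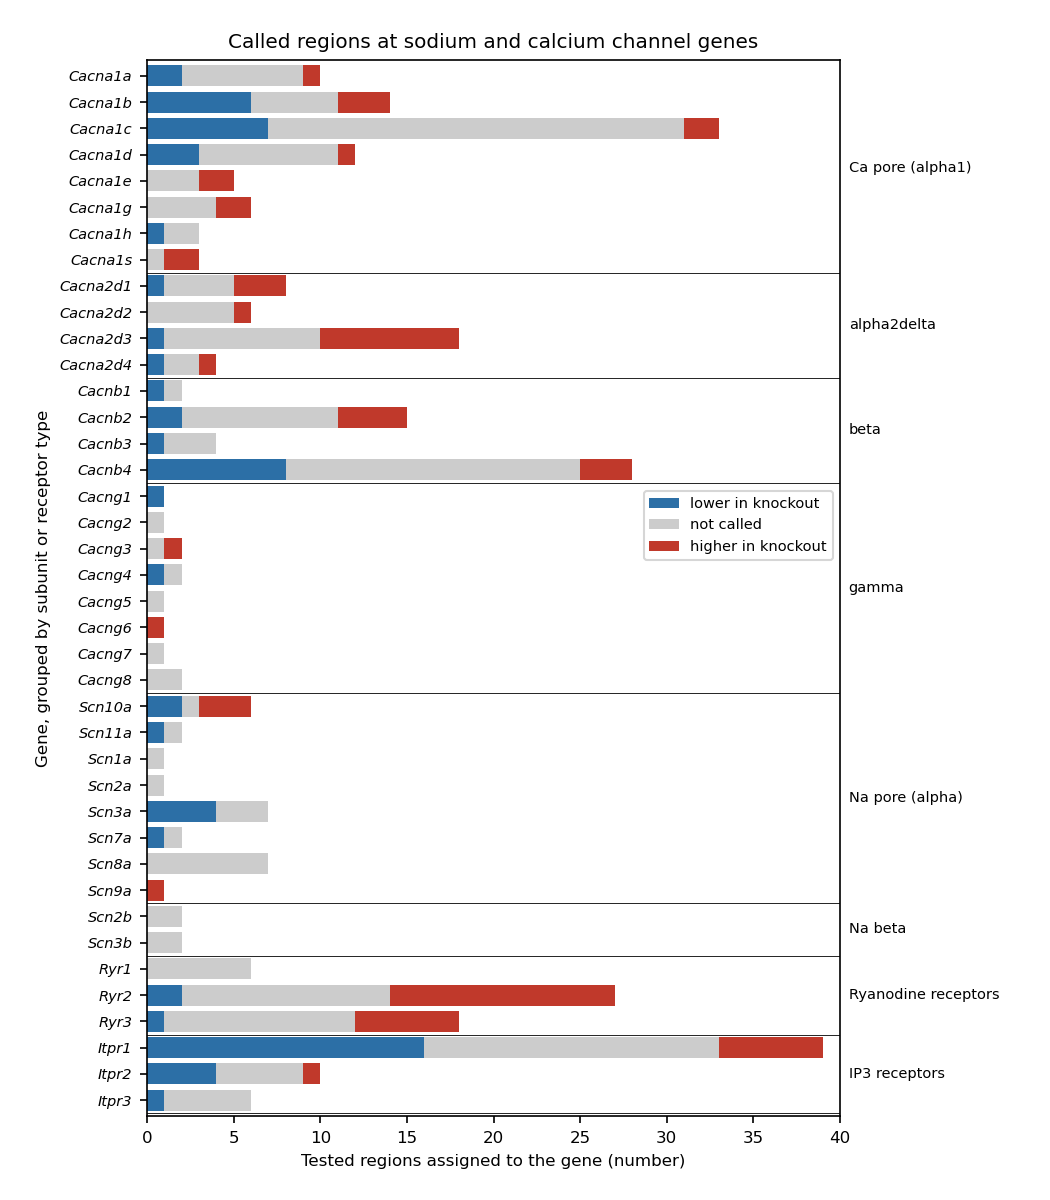
Number of tested regions at each of 40 channel genes, grouped by subunit or receptor type, with bars divided into regions called lower in the knockout, not called and called higher (limma, 5 knockout and 6 Control libraries). Ryr2 has 13 regions called higher and Itpr1 has 16 called lower, and most sodium channel genes have few tested regions.

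The bars by gene show how unevenly the regions were spread. Itpr1 had 39 tested regions, Cacna1c 33, Cacnb4 28, Ryr2 27, and Ryr3 and Cacna2d3 had 18 each. No region was tested at 4 genes: Cacna1f, a retinal L-type pore, had no peak in any library, and Cacna1i, Scn4a and Scn4b had 1 region each that too few libraries shared. Called regions pointed in both directions at 14 genes, only down at 9, only up at 9, and no region was called at 10. The same counts over all genes are not given, so these describe the members and nothing is read from them. When the tested regions of a gene were averaged, 9 of 42 genes were lower and 10 were higher (limma over 16378 genes, where the background was 18% lower and 10.8% higher). The gene mean gives each library 1 value per gene, and where a gene has 1 or 2 regions it is nearly the value of those regions.

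**Figure D2:**
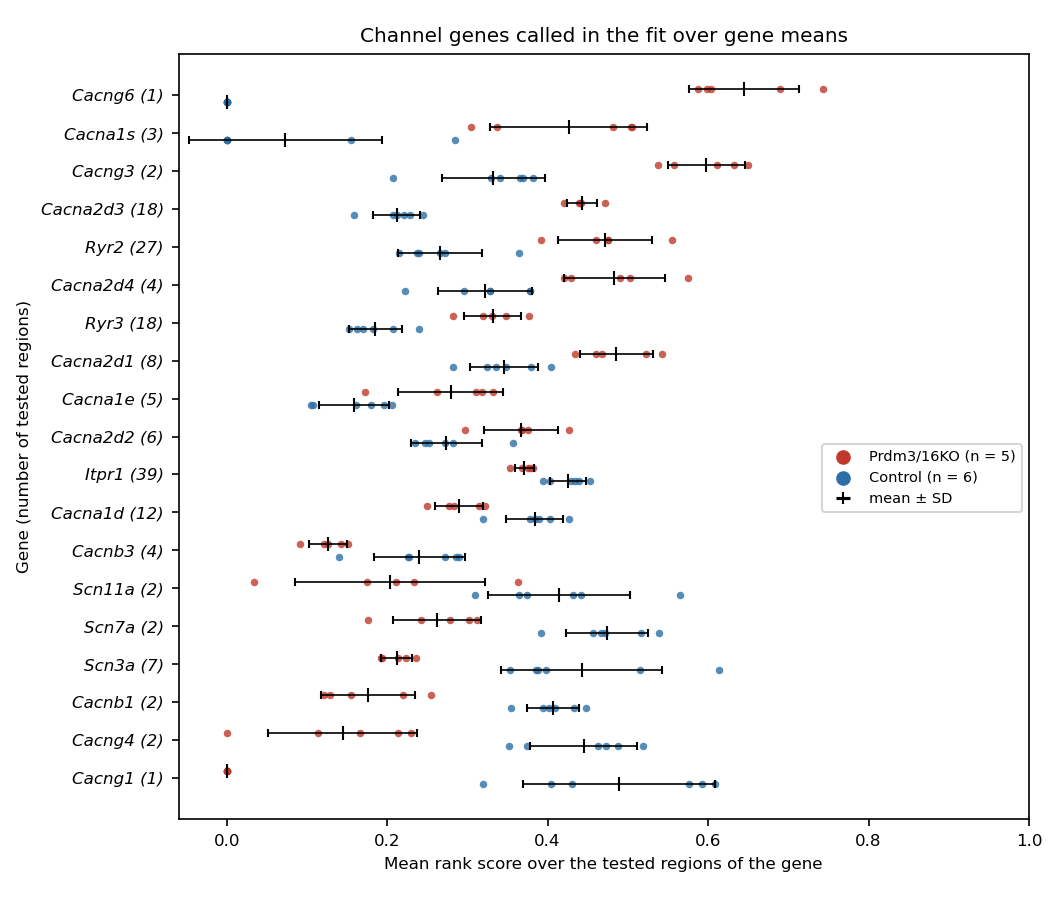
Mean rank score per library over the tested regions of the 19 channel genes called in the fit over gene means, with knockout libraries (n = 5) above Control libraries (n = 6) in each row, and crosses with bars for the mean ± SD. At Cacna2d3 the knockout libraries lie at 0.420 to 0.472 and the controls at 0.159 to 0.244.

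The alpha2delta genes, whose products raise the number of calcium channels at the surface and of which the first and second bind gabapentin, were the class in which all 4 members had a higher gene mean in the knockout. Together they had 13 regions called higher (36.1%) and 3 lower (8.33%) of 36 tested, beside 17% and 20.8% over all regions. Over all genes, 10.8% of gene means were called higher. With lists at deposited length 2 of 4 alpha2delta gene means were called, beside 5.61% called higher over all genes. When a peak in at least 6 libraries was required, 3 of 16 regions were higher and 2 were lower, beside 13.3% and 23.9% over all regions. Only 1 of 4 gene means was then called higher, beside 7.36% of all genes. That requirement leaves out every region open in the 5 knockouts alone. Cacna2d3 (gene 12294, chr14:28904943-29722775) averaged 0.420, 0.472, 0.441, 0.441 and 0.439 in knockout replicates 1 to 5, against 0.208, 0.159, 0.222, 0.228, 0.212 and 0.244 in Control replicates 1 to 6. Every knockout library exceeded every control, and the difference of 0.23 (SE 0.0206, limma adjusted p = 9.49e-06) passed the test under every alternative that was run, with an adjusted p of at most 0.00575.

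Within Cacna2d3, 8 of 18 regions were higher and 1 was lower. The region at chr14:29316022-29316421 scored 0.792, 0.817, 0.798, 0.843 and 0.768 in knockouts, and no control had a peak (limma adjusted p = 2.25e-08). At chr14:29260583-29260982 the knockouts scored 0.851, 0.855, 0.804, 0.903 and 0.799, and the controls at most 0.365 with a median of 0.0442 (limma adjusted p = 1.42e-06). These gains lay 405642 and 461081 bp inside the gene from the start whose promoter is printed above. That promoter itself was open in all 11 libraries, with a mean score of 0.678 ± 0.0371 in knockouts and 0.657 ± 0.0350 in controls (SD, n = 5 and 6, limma adjusted p = 0.595). The lower region, at chr14:28848836-28849235, lay 55907 bp outside the gene body and had a peak in 0 of 5 knockouts and 5 of 6 controls.

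The other 3 alpha2delta genes were called on fewer regions. Cacna2d1 averaged 0.485 ± 0.0456 in knockouts and 0.346 ± 0.0425 in controls (SD, n = 5 and 6, limma adjusted p = 0.00274). Its greatest change lay between genes, 77055 bp from the gene body at chr5:15857009-15857408, where the knockouts scored 0.798, 0.816, 0.824, 0.768 and 0.877 and no control had a peak. With genes limited to 50 kb that region was dropped, and the gene mean differed by 0.0423 (limma adjusted p = 0.364).

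Cacna2d4, best known in retina, averaged 0.483 ± 0.0626 in knockouts and 0.322 ± 0.0586 in controls (SD, n = 5 and 6, limma adjusted p = 0.00503). Its region at chr6:119264053-119264452 scored 0.802, 0.794, 0.740, 0.842 and 0.799 in knockouts and had no peak in controls, whereas the region at chr6:119333266-119333665 was lower, 0.710 ± 0.0771 in knockouts against 0.832 ± 0.0432 in controls (limma adjusted p = 0.0104). With lists at deposited length the gene mean reversed to -0.0213 (limma adjusted p = 0.797). Cacna2d2, which averaged 0.367 ± 0.0461 in knockouts and 0.274 ± 0.0440 in controls (limma adjusted p = 0.0298), lost its call when any of 8 of the 11 libraries was left out, with adjusted p of at most 0.0760, so the count of 4 genes was 3 in those repeats.

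The ryanodine receptors, the store channels of striated muscle and brain, had 19 regions higher (37.3%) and 3 lower (5.88%) of 51, beside 17% and 20.8% over all regions. When a peak in at least 6 libraries was required, 4 of 26 were higher and 3 were lower, beside 13.3% and 23.9% over all regions. No gene mean of this class was then called. Ryr2 (gene 20191, chr13:11553099-12106945), the receptor of the heart, averaged 0.460, 0.475, 0.475, 0.555 and 0.392 in knockout replicates 1 to 5, against 0.273, 0.240, 0.237, 0.265, 0.215 and 0.365 in Control replicates 1 to 6. The groups did not overlap, and the difference was 0.206 (SE 0.0329, limma adjusted p = 6.92e-04). With only regions shared by 6 or more libraries, which leaves out by construction every region that the 5 knockouts alone have, the gene mean differed by 0.0226 (limma adjusted p = 0.695).

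At Ryr2, 13 of 27 regions were higher, and 8 of them had a peak in every knockout and no control. The greatest rise was at chr13:12036754-12037153, where the knockouts scored 0.794, 0.825, 0.822, 0.829 and 0.595 and no control had a peak. At chr13:12030575-12030974, about as far into the gene, the knockouts scored 0.787, 0.834, 0.737, 0.767 and 0.565, again with no control peak. A region deeper in the gene, at chr13:11709642-11710041, was already open in controls, with a lowest score of 0.552, a median of 0.706 and a highest of 0.756, and reached 0.995, 0.992, 0.995, 0.995 and 0.974 in knockouts, among the strongest peaks of those libraries (limma adjusted p = 4.21e-06). Gains thus lay from one side of the gene body to the other, as the maps along 4 genes show.

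The Ryr2 promoter was open in every library and was not called, at 0.811 ± 0.0476 in knockouts and 0.842 ± 0.0637 in controls (SD, n = 5 and 6, limma adjusted p = 0.435). The 2 Ryr2 regions called lower, at chr13:12105889-12106288 and chr13:12106315-12106714, were neighbouring windows downstream of that start. They differed by -0.517 and -0.507, but the same windows differed by -0.0229 and -0.0514 with lists at deposited length, where neither was called. With overlapping peaks merged, promoter and windows formed a single region that differed by -0.0317 (limma adjusted p = 0.408).

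**Figure D3:**
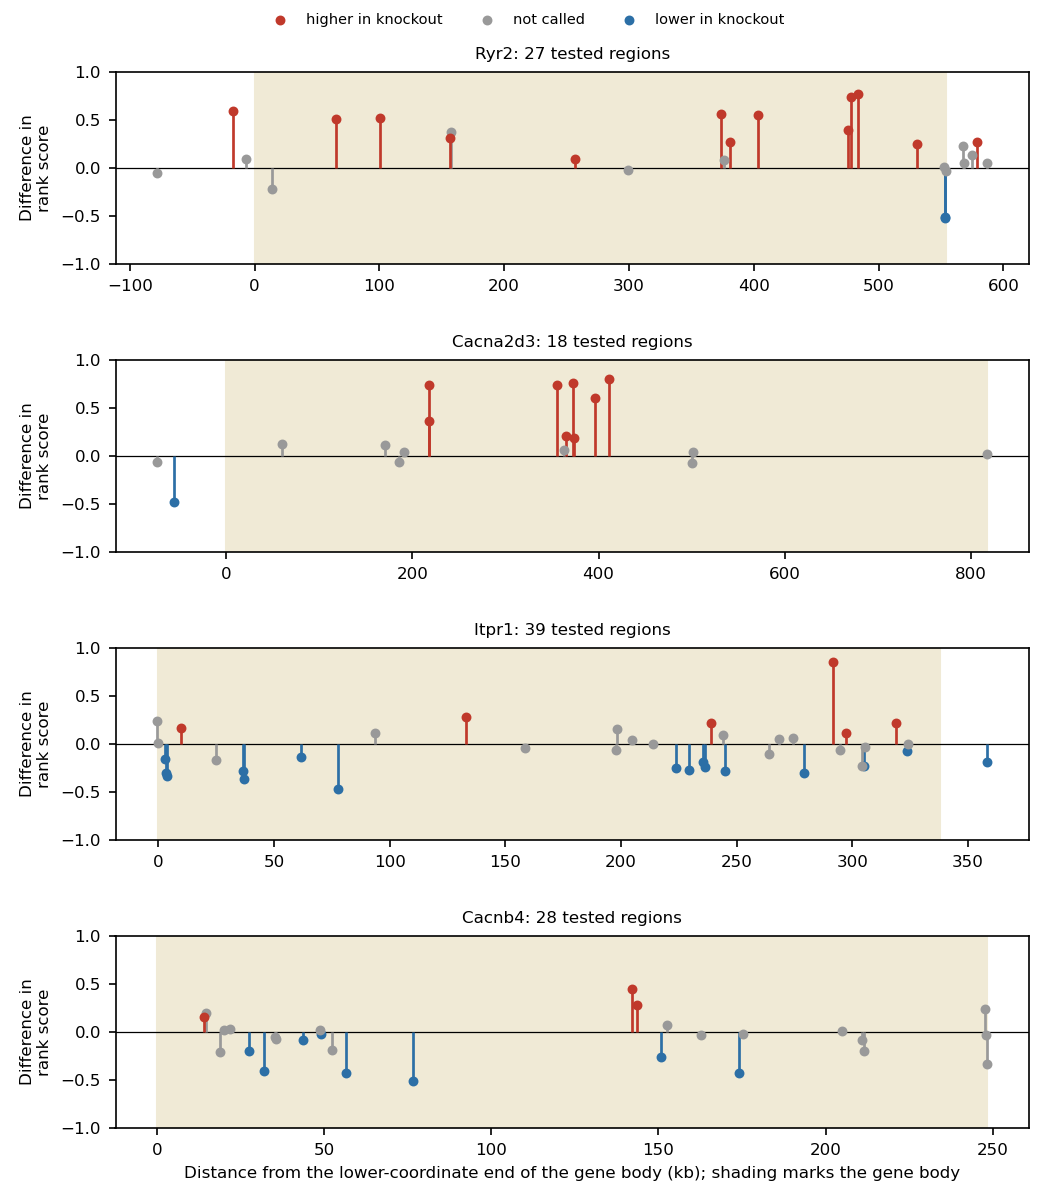
Difference in rank score, knockout minus Control, of every tested region along Ryr2, Cacna2d3, Itpr1 and Cacnb4, against distance in kb from the lower-coordinate end of the gene body (shaded). Stems are coloured by call. Ryr2 shows 13 higher regions across the gene and 2 lower neighbouring windows near its start at the right edge, Cacna2d3 shows 8 higher regions in the middle of the gene, and Itpr1 and Cacnb4 show mostly lower regions with a few gains.

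Ryr3, a receptor expressed at low levels in many tissues, had 6 of 18 regions higher and 1 lower, and its gene mean was 0.332 ± 0.0353 in knockouts and 0.186 ± 0.0325 in controls (SD, n = 5 and 6, limma adjusted p = 0.00137). The region at chr2:112998409-112998808 scored 0.812, 0.860, 0.790, 0.756 and 0.769 in knockouts, with no peak in any control. With lists at deposited length the gene mean differed by 0.0807 and was not called (limma adjusted p = 0.160). The call was also lost at a -log10 q of at least 5 (0.0805, limma adjusted p = 0.153) and on presence (limma adjusted p = 0.147). With a peak in at least 6 libraries required, the mean differed by 0.0454 (limma adjusted p = 0.435). Ryr1, the receptor of skeletal muscle, had 6 tested regions and none was called, and its promoter region averaged 0.583 ± 0.327 in knockouts and 0.757 ± 0.0345 in controls (limma adjusted p = 0.289). Muscle markers had a peak at a gene end in 3 of 6 genes, with Myh6, Tnnt2 and Des at 0, and list means of 0.147 to 0.234 in knockouts and 0.130 to 0.235 in controls. The 2 ranges overlapped, and the part of muscle cells in these results was not tested.

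IP3 receptors showed the opposite balance, with 21 regions lower (38.2%) and 7 higher (12.7%) of 55, beside 20.8% and 17% over all regions. Ranking by fold enrichment, however, gave 10 lower and 8 higher of 51, beside 16.3% and 15.5% over all regions under that ranking. Itpr1 (gene 16438, chr6:108213083-108551116), the most widely expressed member, held 39 of the 55 regions, 16 lower and 6 higher. Its mean was 0.371 ± 0.0114 in knockouts and 0.425 ± 0.0222 in controls (SD, n = 5 and 6), and the groups did not overlap. The call on this mean (limma adjusted p = 0.0365) was lost when any of 9 of the 11 libraries was left out, with adjusted p of up to 0.0832.

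The losses at Itpr1 ranged from partial to complete. At chr6:108290714-108291113 a peak was present in 1 of 5 knockouts, with a score of 0.0685, against 6 of 6 controls with a lowest score of 0.346, a median of 0.492 and a highest of 0.626 (limma adjusted p = 2.64e-05). Near the start of the gene, neighbouring windows from chr6:108215677-108216076 to chr6:108216689-108217088 had no knockout peak and were open in 6, 6 and 5 of 6 controls, at mean scores of 0.160, 0.299 and 0.331. The largest rise of any member region also lay in this gene, at chr6:108504530-108504929, where the knockouts scored 0.846, 0.866, 0.846, 0.860 and 0.879 and no control had a peak (difference 0.859, limma adjusted p = 1.30e-08). That region passed the presence requirement through the knockouts alone, so its p-value is a description.

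Itpr1 also held 2 of the 3 strongest member regions open in all libraries. The region at chr6:108536942 averaged 0.984 over the 11 libraries and that at chr6:108212834, beside the gene start, averaged 0.977, and neither was called. Ranked by fold enrichment, however, the region at 108212834 differed by 0.187 (limma adjusted p = 7.20e-04), and after centring by 0.031 (limma adjusted p = 0.0481), beside 0.0112 here. Cacnb4 held the other, at chr2:52477168 with 0.978, which differed by -0.0249 (limma adjusted p = 0.0188) but by 0.0686 when peaks were ranked by fold enrichment (limma adjusted p = 0.0177), so its direction depends on the ranking. At Itpr2, 4 of 10 regions were lower and 1 was higher. The higher region, chr6:146465816-146466215, scored 0.713 ± 0.0833 in knockouts and 0.102 ± 0.168 in controls (limma adjusted p = 3.85e-05). At Itpr3, 1 of 6 regions was called, lower in the knockout.

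Among the 86 regions of calcium pore genes, 19 were lower (22.1%) and 13 were higher (15.1%), near the 20.8% and 17% over all regions. The greatest fall of any member lay in Cacna1c (gene 12288, chr6:118587240-119197384). At chr6:118934522-118934921 the knockouts scored 0.0501, 0.0194, 0.243, 0.210 and 0, against a lowest of 0.703, a median of 0.758 and a highest of 0.814 in controls (difference -0.651, limma adjusted p = 7.64e-07). The groups were far apart, yet 4 of 5 knockouts kept a weak peak, so a fit on presence alone did not call it. In the same gene 7 of 33 regions were lower and 2 were higher, and 20 were open in all libraries.

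A gain lay near that loss: chr6:118955055-118955454 scored 0.946, 0.959, 0.943, 0.943 and 0.944 in knockouts and 0.729 to 0.815 in controls, with a median of 0.777 (limma adjusted p = 9.65e-07). The main Cacna1c promoter region, with 57 CpG in its window, was not called at 0.576 ± 0.0645 in knockouts and 0.542 ± 0.0490 in controls. The gene mean, 0.432 ± 0.0127 in knockouts and 0.482 ± 0.0160 in controls, did not overlap between groups and missed the threshold (limma adjusted p = 0.0512).

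Cacna1d, an L-type pore of sinus node and endocrine cells, had a lower gene mean, 0.289 ± 0.0297 in knockouts against 0.384 ± 0.0359 in controls (SD, n = 5 and 6, limma adjusted p = 0.00987). Its region at chr14:30252818-30253217 scored 0.274, 0, 0, 0 and 0.359 in knockouts and 0.668 to 0.780 in controls, with a median of 0.752 (limma adjusted p = 1.19e-05). Its promoter, with 63 CpG the richest of the members, was open throughout and not called (limma adjusted p = 0.617).

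Cacna1b, the N-type pore of nerve terminals, combined 6 lower and 3 higher regions of 14, and its gene mean was 0.431 ± 0.0197 in knockouts and 0.436 ± 0.0264 in controls (limma adjusted p = 0.860). The region at chr2:24659406-24659805 scored 0.839, 0.881, 0.883, 0.875 and 0.836 in knockouts and 0 to 0.438 in controls (limma adjusted p = 1.78e-05). The apparent fall at chr2:24633179-24633578, 0.174 ± 0.388 in knockouts against 0.815 ± 0.392 in controls (SD, n = 5 and 6, limma adjusted p = 0.0434), was the flank of a peak in the next window and was not called when 200 bp of overlap were required (-0.316, limma adjusted p = 0.376). That next window, chr2:24633631-24634030, was open in all libraries and lower by 0.0909 in the knockout (0.882 ± 0.0301 in knockouts against 0.972 ± 0.0109 in controls, limma adjusted p = 5.77e-05).

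**Figure D4:**
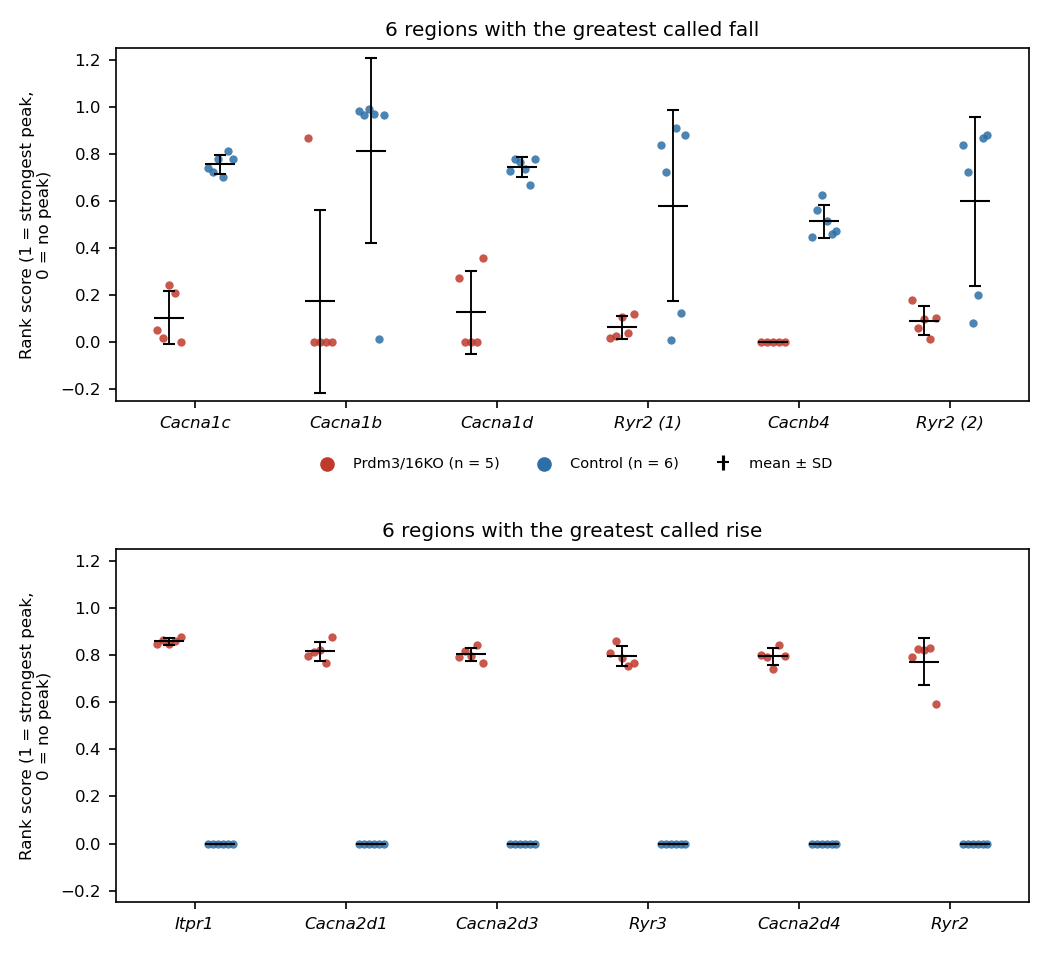
Rank scores per library at the 6 member regions with the greatest called fall (top) and the 6 with the greatest called rise (bottom), with knockout libraries (n = 5) left of Control libraries (n = 6) and bars for the mean ± SD. In the lower panel every knockout scores at least 0.595 and every control scores 0, while in the upper panel the controls of Cacna1b and both Ryr2 windows include low values.

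Other pores had fewer regions. Cacna1s, the L-type pore and voltage sensor of skeletal muscle, had a gene mean of 0.504, 0.482, 0.337, 0.505 and 0.305 in knockouts and 0.284, 0, 0, 0, 0 and 0.155 in Control replicates 1 to 6 (limma adjusted p = 0.00133). The call was lost at deposited length (0.208, limma adjusted p = 0.0524), when ranked by fold enrichment (0.258, limma adjusted p = 0.137) and on presence (limma adjusted p = 0.188). Its called regions, chr1:136085944-136086343 and chr1:136086366-136086765, are neighbouring windows of a single open site inside the gene, and its promoter window had no region. Cacna1e, an R-type pore, was also higher, 0.279 ± 0.0652 in knockouts against 0.159 ± 0.0436 in controls (limma adjusted p = 0.0244). Its call was lost without knockout replicate 2, 4 or 5 (limma adjusted p up to 0.0615). It was also lost with the replicate number as a block, which leaves out Control replicate 6 (limma adjusted p = 0.0502). Cacna1a, the P/Q-type pore, had 2 lower and 1 higher of 10 regions and no call on its mean, 0.388 ± 0.0454 in knockouts and 0.384 ± 0.0753 in controls.

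Beta subunits, which chaperone the pore and tune its gating, had 12 regions lower (24.5%) and 7 higher (14.3%) of 49, beside 20.8% and 17% over all regions. Cacnb4 (gene 12298, chr2:52428320-52676609) held 28 of them, 8 lower and 3 higher. Its region at chr2:52504796-52505195 had no peak in any knockout and scored 0.446 to 0.626 in controls, with a median of 0.493 (limma adjusted p = 3.22e-06), and chr2:52484600-52484999 behaved likewise, with 0.327 to 0.517 in controls (limma adjusted p = 2.45e-05). Its gene mean was 0.374 ± 0.0541 in knockouts and 0.448 ± 0.0495 in controls and missed the threshold (limma adjusted p = 0.0971).

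Cacnb1 and Cacnb3 were called lower on their means. Cacnb1, the beta subunit of skeletal muscle, averaged 0.176 ± 0.0587 in knockouts and 0.407 ± 0.0323 in controls over 2 regions (limma adjusted p = 1.40e-04). Cacnb3 averaged 0.126 ± 0.0232 in knockouts and 0.240 ± 0.0564 in controls over 4 regions (limma adjusted p = 0.0188), of which 1 was called: chr15:98640114-98640513 scored 0, 0, 0.179, 0 and 0.223 in knockouts and 0.521 to 0.621 in controls. Cacnb2, the beta subunit of heart, had 4 regions higher and 2 lower of 15, among them the internal promoter printed above, and its mean was 0.403 ± 0.0401 in knockouts and 0.362 ± 0.0537 in controls (limma adjusted p = 0.322).

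Gamma subunits had only 11 tested regions, 2 lower and 2 higher (18.2% each, beside 20.8% and 17%), and the 4 calls on gene means follow from them. Of 8 genes, 2 were lower and 2 higher on the gene mean (25% each, beside 18% and 10.8% over all genes). Cacng6 rested on a single region 1191 bp from the gene body, chr7:3422197-3422596, which scored 0.604, 0.689, 0.743, 0.588 and 0.598 in knockouts and had no peak in controls (limma adjusted p = 3.18e-07). Cacng1, the gamma subunit of the skeletal muscle channel, rested on chr11:107705642-107706041, without a knockout peak and at 0.320 to 0.609 in controls, with a median of 0.503 (limma adjusted p = 3.17e-05). The next called region on that chromosome, chr11:107728027-107728426, lay 4130 bp outside Cacng4 and moved the same way, with no knockout peak and 0.354 to 0.498 in controls.

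Cacng3 and Cacng4 encode auxiliary subunits of AMPA-type glutamate receptors in brain. Cacng3 averaged 0.598 ± 0.0482 in knockouts and 0.332 ± 0.0643 in controls (SD, n = 5 and 6, limma adjusted p = 1.58e-04). Cacng4 averaged 0.144 ± 0.0925 in knockouts and 0.445 ± 0.0663 in controls (limma adjusted p = 4.44e-04). Neither has a tested region inside its body, so both values come from regions between genes. Cacng2, the stargazin gene of the same family, had 1 region, open in all 11 libraries and not called, at 0.877 ± 0.0277 in knockouts and 0.857 ± 0.0255 in controls.

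Sodium pore genes had 8 regions lower (25.8%) and 5 higher (16.1%) of 31, beside 20.8% and 17% over all regions. On the gene mean 3 of 9 were lower and none was higher, beside 18% and 10.8% over all genes. Scn3a (gene 20269, chr2:65457118-65567591), the pore of the embryonic brain, averaged 0.192, 0.213, 0.194, 0.237 and 0.223 in knockout replicates 1 to 5, against 0.386, 0.353, 0.388, 0.516, 0.398 and 0.614 in Control replicates 1 to 6 (difference -0.230, SE 0.0433, limma adjusted p = 0.00203). All knockouts lay below all controls. The region chr2:65508737-65509136 had no knockout peak and 0.231 to 0.608 in controls, with a median of 0.539 (limma adjusted p = 5.87e-05), and chr2:65552759-65553158 had none in knockouts and 0.153 to 0.395 in controls (limma adjusted p = 8.71e-04).

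Scn7a, an atypical member that senses sodium level instead of voltage, was lower by 0.212, with 0.262 ± 0.0550 in knockouts and 0.474 ± 0.0511 in controls (SD, n = 5 and 6, limma adjusted p = 4.41e-04). Its called region, chr2:66751279-66751678, kept a peak in every library and scored 0.484, 0.556, 0.352, 0.604 and 0.623 in knockouts and 0.764 to 0.912 in controls. Scn11a, a pore of sensory neurons, was lower on the mean of its 2 tested regions, of which 1 was called lower. That mean was 0.204 ± 0.118 in knockouts against 0.414 ± 0.0884 in controls (limma adjusted p = 0.0158), and the groups overlapped. With the replicate number as a block, which leaves out Control replicate 6, this call was lost (-0.181, limma adjusted p = 0.0628).

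Scn10a, another sensory neuron pore, gave mixed results, with 3 higher and 2 lower of 6 regions, among them chr9:119632129-119632528 with 0.522, 0.368, 0.330, 0.443 and 0.283 in knockouts and no control peak (limma adjusted p = 6.39e-05), and chr9:119691538-119691937 with 0.548 ± 0.118 in knockouts and 0.798 ± 0.0645 in controls (limma adjusted p = 0.00133). Scn2a was represented by a single strong promoter region, at 0.901 ± 0.0424 in knockouts and 0.933 ± 0.0367 in controls, that was not called (limma adjusted p = 0.242), and none of the 7 regions of Scn8a was called.

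At the sodium beta subunit genes Scn2b and Scn3b, whose products modulate the pore and its place in the membrane, none of the 2 regions tested at each was called. The gene mean of Scn2b was 0.275 ± 0.0709 in knockouts and 0.393 ± 0.128 in controls (SD, n = 5 and 6, limma adjusted p = 0.157), and that of Scn3b was 0.421 ± 0.0909 in knockouts and 0.476 ± 0.119 in controls (limma adjusted p = 0.52). The groups overlapped at both genes. Markers of neurons and glia, the cells best known for these genes, had a peak at a gene end in 4 of 6 genes, with Rbfox3 and Sox10 at 0, and list means of 0.360 to 0.408 in knockouts and 0.286 to 0.388 in controls. Tubb3 alone averaged 0.584 in knockouts and 0.195 in controls. Neuroendocrine markers ranged over 0.203 to 0.283 in knockouts and 0.196 to 0.290 in controls, and the part of such cells in the channel results was not tested.

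Genes that act with the calcium channels stood near the background. Of 37 calcium handling genes, 35 had tested regions, 240 in all, 54 lower (22.5%) and 36 higher (15.0%), beside 20.8% and 17% over all regions. On gene means 6 of the 35 were lower and 3 were higher, beside 18% and 10.8% over all genes. Slc8a1, the sodium-calcium exchanger, was higher, 0.560 ± 0.0166 in knockouts against 0.394 ± 0.0312 in controls (limma adjusted p = 1.22e-04), as was its relative Slc8a3 with 0.310 ± 0.132 in knockouts and 0.0956 ± 0.0505 in controls (limma adjusted p = 0.0124). Plasma membrane calcium pumps were lower at Atp2b1, 0.367 ± 0.0168 in knockouts against 0.472 ± 0.0117 in controls (limma adjusted p = 6.15e-04), and at Atp2b3, 0.322 ± 0.0430 in knockouts against 0.565 ± 0.0297 in controls (limma adjusted p = 2.38e-05).

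Stim2, a sensor of store calcium, had the most lower regions of that list, 8 of 22, with 5 higher, and Camk2d, a calmodulin-dependent kinase, had the most higher regions, 8 of 35, with 6 lower. Asph, which includes the junctin transcript of the ryanodine receptor complex, was lower at 0.307 ± 0.0258 in knockouts and 0.522 ± 0.0909 in controls (limma adjusted p = 0.00191). Of 12 sodium channel partners and sodium leak channel genes with regions, 141 in all, 25 regions were lower (17.7%) and 24 were higher, again beside 20.8% and 17%. Nedd4l, a ubiquitin ligase that removes sodium channels from the membrane, had the most lower regions, 10 of 43, and Ank3, the ankyrin that anchors sodium channels, the most higher, 7 of 27. The sodium leak channel regulator Unc79 was the only gene of that list called on its mean, 0.0591 ± 0.00914 in knockouts against 0.166 ± 0.0438 in controls (limma adjusted p = 0.0169).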

How the data were processed

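ATAC-seq peak lists of 5 knockout and 6 Control libraries were analysed, 1 list per library. Per the submitters' processing notes the build was mm10, and DiffBind 3, deepTools and MACS2 were among the tools, in roles not stated. The aligner is not given in the sources used here. In each deposited list, the layout and values identify a fold enrichment (a ratio), a -log10 p and a -log10 q per peak, made by the authors within that library. All depend on read depth, which is unknown. The deposited score, a whole number with no stated unit, was not used.

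The 72935 strongest peaks by -log10 p were kept per library and given rank scores. Windows of 400 bp were set on summits, the better ranked of overlapping windows was kept, and a peak counted if it overlapped by at least 100 bp. Regions shared by 3 or more of the 11 libraries were assigned to the nearest protein-coding gene body (RefSeq GRCm38.p6) within 100 kb. As a check of the build, 11.2% of the summits of Control replicate 1 fell in promoter windows, against 0.574% once shifted.

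Rank scores of all regions, and gene means of all genes, entered limma 3.58.1 under R 4.3.3, with genotype as the only term and with trend and robust options, and p-values were adjusted by Benjamini-Hochberg over the whole table. Presence was compared with two-sided Fisher's exact tests, adjusted over testable regions. The fits were also run on simulated scores with normal noise and known shifts. These scores did not copy the zeros of the real ones, so p-values at regions without a peak in 1 genotype were not checked. Tables and figures were made with matplotlib 3.10.9, scipy 1.17.1, pandas 2.3.3 and numpy 2.4.6 in Python 3.11.15.

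Members, lists and alternatives were chosen with earlier results of these data known. Named by rule were the 6 greatest called falls and rises, the called region of each subunit class with the smallest p, the 3 strongest regions open in all libraries, every gene called on its mean, the 5 genes with most tested regions, the 3 with most called regions in each direction and genes without tested regions. Results of 2 genes are not reported singly here. Other regions and genes were chosen after their values were seen. Alternatives covered list length, q threshold, ranking, overlap, regions kept, merging, centring, chromosomes, presence scores, fit options, replicate block, gene distance and leaving out each library. The block fit left out Control replicate 6, which has no knockout library of the same number.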

Additional observations from a re-analysis of the deposited data

Results flagged for a closer look

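Of 67 groups of libraries examined for a value far from the rest, 5 held such a library, where chance gives about 1 in 20 groups. At the Cacna1b region at chr2:24633179, knockout replicate 1 scored 0.868 while the median of the other knockouts was 0, and Control replicate 5 scored 0.0147 while the median of the other controls was 0.969. At the Ryr2 region at chr13:12036754, knockout replicate 5 scored 0.595, against a median of 0.824 in the other knockouts, and the region rose by 0.818 without that library, beside 0.773 with it. In the gene mean of Cacng3, Control replicate 3 had 0.207, against 0.365 in the other controls. Control replicate 6 had 292 member peaks among its strongest peaks, and the other controls had a median of 255.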

How the results depend on the processing

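The counts to compare are 68 member regions lower and 67 higher, 9 genes lower and 10 higher, and by presence 37 regions favouring knockouts and 27 favouring controls. Shares over the whole table were 20.8% and 17% of regions, 18% and 10.8% of genes, and 23.3% and 23.9% by presence. Lists at deposited length gave 5 genes higher, beside 5.61% of all genes. Lists of 36467 peaks gave 33 regions lower, 33 higher, and by presence 24 favouring knockouts and 9 favouring controls. The 33 lower and 33 higher were each 22.4% of the members tested, beside 21.4% and 19.6% of all regions. A -log10 q of at least 5 gave 14 genes lower and 6 higher, beside 23.1% and 6.13% of all genes. Requiring a peak in at least 6 libraries gave 27 regions higher, 3 genes higher and 1 region favouring knockouts, a loss fixed by construction, since a region open in the 5 knockouts alone cannot reach 6 libraries while one open in the 6 controls can. With at least 6 libraries, 13.3% of all regions and 7.36% of all genes were higher. Presence in place of rank gave 37 regions lower (11.4%), 41 higher (12.6%) and 5 genes higher. The shares over the whole table were then 9.72%, 7.71% and 5.38%. Leaving out each library in turn gave 62 to 71 regions lower, 59 to 68 higher, 8 to 9 genes lower, 8 to 11 higher, and by presence 26 to 31 favouring knockouts and 13 to 16 favouring controls. Those repeats called 18.5% to 20.9% of all regions lower and 15.5% to 17.1% higher. Over all genes they called 15.3% to 19.2% lower and 9.49% to 10.8% higher. The shorter lists also tested fewer regions (147 members). The cause of the others was not tested. For the presence counts of these alternatives, shares over all testable regions are not given, so nothing about the members is read from those counts.

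Directions that reversed were those of Cacna2d4 on its gene mean (-0.0213 at deposited length and -0.0816 with at least 6 libraries, under that same limit), Cacna2d1 on its gene mean (-0.00185 with at least 6 libraries), the Itpr1 region at 108536942 (0.0665 ranked by fold enrichment and 0.0172 after centring) and the Cacnb4 region at 52477168 (0.0686 ranked by fold enrichment). Of the 19 genes called, between 11 and 19 kept call and direction in each alternative, fewest with the shorter lists. Calls were also lost at deposited length for Cacna1e (0.0779) and Cacna1s (0.208), and with the shorter lists for the gene means of Cacng1 (-0.0923), Cacng3 (0.198) and Scn11a (-0.161) and the regions of Cacnb4 at 52504796 (-0.0682) and Scn3a at 65508737 (-0.0914). Centring and the block each ended the calls of Cacnb3 and Itpr1, and the block also those of Scn11a, Cacna1e and the Ryr2 region at 12105889 (-0.458, limma adjusted p = 0.0611). Replicate numbers did not pair the libraries: deviations of same-numbered libraries correlated at 0.0517, -0.000479, -0.0234, 0.00415 and 0.139, and only replicates 1 and 5 matched their own number best. With the replicate number as a block, 62 regions were lower and 60 higher, and 6 genes were lower and 10 higher. All regions then stood at 18.1% and 14.9%, and all genes at 13.5% and 9.16%. The block fit also left out Control replicate 6. Without that library and without a block, 66 regions were lower and 61 higher, and 9 genes were lower and 11 higher. Unknown read depth limits all weak peaks, since a region without a peak may lie just under the threshold of that library.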

Other observations

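Motif letters were counted on both strands in the 45 member promoters and in all 32851 promoters, without a test. The TEAD core stood in 22.2% against 14.7%, the NKX2 core in 13.3% against 13.6%, the GC box in 44.4% against 35.7%, the CCAAT box in 26.7% against 37.4% and the TATA box in 4.44% against 13.6%. Mesenchymal markers had a peak at a gene end in 3 of 6 genes, with list means of 0.165 to 0.216 in knockouts and 0.169 to 0.235 in controls, and mesothelial markers in 2 of 3 genes, with 0.129 to 0.259 in knockouts and 0 to 0.220 in controls.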
